A study of Mus musculus with 12 samples.

Results

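Genes of MHC class I antigen presentation were followed in tumour-associated macrophages (TAMs) sorted from mouse gliomas by whether they carried nanoparticles. The set was chosen by symbol and holds 10 genes of the 54532 listed in the count table. It comprises the heavy chain genes H2-K1, H2-D1, H2-Q7, H2-T23 and H2-M3, the light chain gene B2m, the peptide transport and loading genes Tap1, Tap2 and Tapbp, and the regulator gene Nlrc5. All 10 were found and all 10 passed the filter on low counts.

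The 6 mice, 4 labelled male and 2 labelled female (mice 5 and 6), had the genotype Ntv-a_Ink4a/Arf_KO and gliomas, and all of them received rhodamine-labelled perfluoro-crown-ether nanoparticles (Rhodamine_PFCE_NP) by vein. After 24 hours each tumour gave a rhodamine-positive sort (Rhod_Uptaking) and a rhodamine-negative sort (Rhod_Negative) of more than 2000 cells, gated as positive for CD45 and CD11b and negative for Ly6C, which makes 6 libraries of polyadenylated RNA per sort. In Ntv-a mice the nestin promoter drives the tv-a receptor for avian retroviruses, while Ink4a/Arf knockout removes a tumour suppressor locus. Strain background and age were not given in the sources used here, and no mouse without nanoparticles was included, so both sorts come from treated animals. Libraries held 13073189 to 17379314 counts and carried 1 batch label. Levels are given as CPM, counts as a share of the library total after TMM scaling, and a positive log2 fold change means a higher level in the rhodamine-positive sort.

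MHC class I molecules display peptides made inside the cell to CD8 T cells and to natural killer cells. A heavy chain pairs with β2-microglobulin in the endoplasmic reticulum, where the TAP transporter delivers peptides that the proteasome has cut in the cytosol, and tapasin bridges TAP and the empty heavy chain. NLRC5 is the transactivator that drives class I genes, as CIITA drives class II genes, and interferon induces most of the pathway.

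The class I genes carry known control elements close to their start, and the promoters of 5 members are shown because they share those elements to different degrees. RefSeq promoters (GRCm38.p6, 250 bases before to 50 after the start) were matched for 8 of the 10 members, all except Tap2 and Nlrc5. Searched on both strands were the kappa B element GGGATTCCC, the CRE-like element TGACGC, the promoter box CCAAT and an element that interferon regulatory factors bind, in the forms GAAANNGAA and GAANNGAAA. Capitals mark the matches, and sequences run 5′ to 3′ along the gene. The windows are chr17:34000298-34000597 on the minus strand for H2-K1, chr17:35438905-35439204 on the plus strand for H2-Q7, chr17:36032652-36032951 on the minus strand for H2-T23, chr2:122147437-122147736 on the plus strand for B2m and chr17:34187306-34187605 on the plus strand for Tap1.
H2-K1: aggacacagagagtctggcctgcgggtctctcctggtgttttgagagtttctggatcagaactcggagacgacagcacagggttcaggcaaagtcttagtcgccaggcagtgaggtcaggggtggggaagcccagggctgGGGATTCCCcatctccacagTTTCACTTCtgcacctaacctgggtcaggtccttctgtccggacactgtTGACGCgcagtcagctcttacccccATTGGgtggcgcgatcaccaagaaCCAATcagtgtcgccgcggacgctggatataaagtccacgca
H2-Q7: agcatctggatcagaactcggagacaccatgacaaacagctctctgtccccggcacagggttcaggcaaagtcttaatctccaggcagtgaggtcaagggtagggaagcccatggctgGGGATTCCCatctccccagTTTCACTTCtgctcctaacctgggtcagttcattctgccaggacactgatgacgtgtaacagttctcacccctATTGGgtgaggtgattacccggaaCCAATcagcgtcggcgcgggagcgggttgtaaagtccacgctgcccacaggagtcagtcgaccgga
H2-T23: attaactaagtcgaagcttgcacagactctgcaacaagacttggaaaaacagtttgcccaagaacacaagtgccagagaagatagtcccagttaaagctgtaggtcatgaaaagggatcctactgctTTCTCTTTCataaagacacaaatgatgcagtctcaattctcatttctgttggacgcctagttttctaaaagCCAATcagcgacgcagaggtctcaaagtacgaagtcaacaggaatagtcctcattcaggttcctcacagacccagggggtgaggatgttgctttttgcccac
B2m: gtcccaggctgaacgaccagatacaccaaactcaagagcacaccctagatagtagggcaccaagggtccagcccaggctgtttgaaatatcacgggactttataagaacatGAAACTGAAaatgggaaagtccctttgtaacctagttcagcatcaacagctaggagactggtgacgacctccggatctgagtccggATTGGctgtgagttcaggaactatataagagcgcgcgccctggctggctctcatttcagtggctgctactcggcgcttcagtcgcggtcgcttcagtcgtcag
Tap1: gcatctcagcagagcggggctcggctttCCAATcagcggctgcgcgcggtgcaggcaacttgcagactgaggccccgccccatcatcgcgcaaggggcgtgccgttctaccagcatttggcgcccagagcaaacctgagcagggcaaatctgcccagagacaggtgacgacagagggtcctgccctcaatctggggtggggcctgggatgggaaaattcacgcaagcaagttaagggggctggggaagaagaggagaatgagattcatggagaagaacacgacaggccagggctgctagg
The kappa B element, in the exact letters searched, was present in H2-K1, H2-D1 and H2-Q7 and in 0.353% of all 32817 promoter windows. Other forms of the kappa B element were not searched. The lack of a match in the other members' windows, that of B2m included, is thus no absence of related forms. CCAAT was present in all 8 members with a window, against 37.4% of all windows. TGACGC was present in H2-K1, H2-D1 and H2-M3, against 7.39% of all windows. The form TGACGT, which differs in the last letter, was not searched. The H2-Q7 window holds it unmarked, so the absence of TGACGC there is no absence of related forms. GAAANNGAA was present in H2-T23 and B2m, against 8.55% of all windows, and GAANNGAAA in H2-K1, H2-D1, H2-Q7 and H2-M3, against 7.52%. No match overlapped another in the members' windows. The heavy chain genes are copies of each other, so their matches are not independent, and a match describes letters only.

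None of the 5 heavy chain genes, and not the light chain gene, passed the test between cells with and without nanoparticles. Of them, H2-D1 was higher in the rhodamine-positive sort of every mouse and H2-T23 lower in that of every mouse, as Tap1 was. A shared direction in 6 of 6 mice was seen in 28.2% of all genes tested and a shared fall in 14% of them. H2-K1 and H2-D1 encode the classical heavy chains that present peptides to CD8 T cells. H2-K1 (ENSMUSG00000061232, chromosome 17, 33996017 to 34000347, mm10) had 1784, 2381 and 4238 CPM as lowest, median and highest value in rhodamine-positive libraries, against 1486, 2024 and 3910 CPM in rhodamine-negative libraries. It was higher in the rhodamine-positive sort in 5 of 6 mice, yet the groups overlapped almost fully. The log2 fold change was 0.20 ± 0.095 (SE, n = 6 pairs; 95% interval -0.0031 to 0.41), with an edgeR adjusted p of 0.135. H2-D1 (chromosome 17, 35262730 to 35267499) had 4437, 5334 and 7966 CPM in rhodamine-positive libraries, against 3412, 4246 and 7665 CPM in rhodamine-negative libraries. All 6 mice had more H2-D1 in the rhodamine-positive sort, with a log2 fold change of 0.25 ± 0.11 (SE; 95% interval 0.024 to 0.48) and an edgeR adjusted p of 0.0974.

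B2m, the light chain shared by all of these heavy chains, lies apart from the H2 complex (chromosome 2, 122147686 to 122153083). It had 2750.3, 3120 and 3843 CPM in rhodamine-positive libraries, against 1758, 2931 and 3689 CPM in rhodamine-negative libraries. The rhodamine-positive sort was higher in 5 of 6 mice, while mouse 4 went the other way with 2750.3 CPM in the rhodamine-positive and 3643 CPM in the rhodamine-negative sort. The log2 fold change was 0.26 ± 0.14 (SE; 95% interval -0.042 to 0.56), with an edgeR adjusted p of 0.189. Without mouse 4 the log2 fold change was 0.39 and passed (edgeR adjusted p = 0.0388).

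The nonclassical heavy chains H2-Q7, H2-T23 and H2-M3 are less polymorphic. H2-Q7 encodes a Qa-2 antigen, H2-T23 encodes Qa-1, which presents leader peptides to receptors of natural killer cells, and H2-M3 presents formylated peptides. H2-Q7 (chromosome 17, 35439155 to 35443773) had 113, 188 and 669 CPM in rhodamine-positive libraries, against 106, 195 and 604 CPM in rhodamine-negative libraries, with a log2 fold change of 0.069 ± 0.088 (SE). H2-M3 (chromosome 17, 37270220 to 37274484) had 91.6, 104 and 167 CPM in rhodamine-positive libraries, against 82.0, 103 and 157 CPM in rhodamine-negative libraries, with a log2 fold change of 0.073 ± 0.10 (SE). For both genes the libraries of the 2 sorts covered nearly the same range, and neither passed (edgeR adjusted p = 0.603 and 0.640). H2-T23 (chromosome 17, 36029773 to 36032855) was the only heavy chain member with less RNA in the rhodamine-positive sort of all 6 mice. Its values were 333, 384 and 836 CPM in rhodamine-positive libraries, against 387, 451 and 889.5 CPM in rhodamine-negative libraries. Its log2 fold change was -0.20 ± 0.078 (SE; 95% interval -0.37 to -0.031), with an edgeR adjusted p of 0.0775.

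Reads of near-identical heavy chain genes may have been split or dropped in counting. Of the 50-base windows in the longest coding transcript, 34.9% were shared with other genes for H2-Q7, 28.8% for H2-T23, 14.3% for H2-D1 and 8.79% for H2-K1, against 0% for B2m and Nlrc5. H2-Q7 shared most with H2-Q6 (19.3% of its windows), so levels of single H2-Q and H2-T genes are uncertain. When the counts of 29 class I heavy chain genes were summed to 1 feature, it held 9435 ± 2882 CPM in rhodamine-positive and 8386 ± 3027 CPM in rhodamine-negative libraries (SD, n = 6 each). The sum was higher in the rhodamine-positive sort of 6 of 6 mice, by 0.19 ± 0.10 on the log2 scale (SE; 95% interval -0.037 to 0.41), and did not pass (edgeR adjusted p = 0.204).

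**Figure D1:**
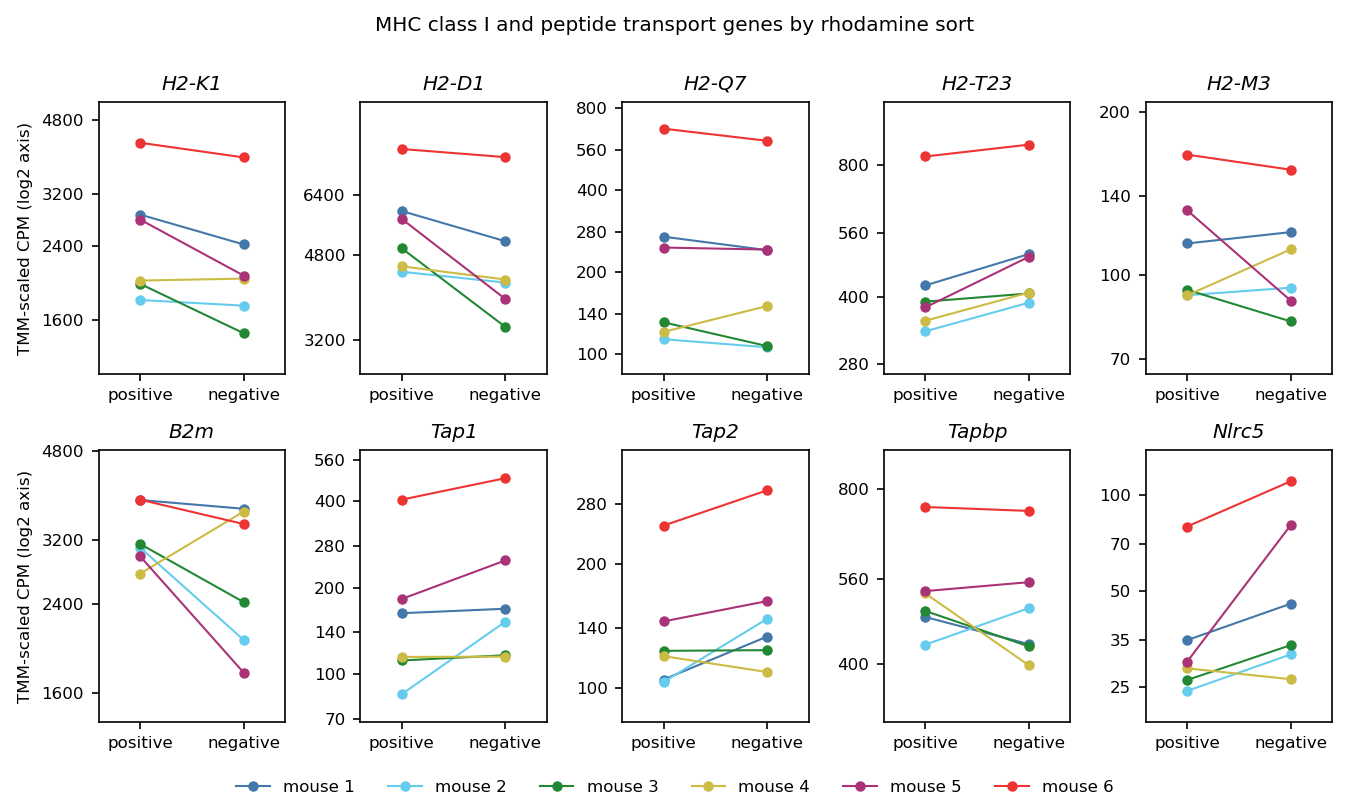
TMM-scaled CPM (log2 axis) of the 10 genes in the rhodamine-positive and rhodamine-negative library of each mouse, with 1 line per mouse. The lines of mouse 6 lie above those of all other mice in 9 of the 10 panels, B2m being the exception. Most slopes between sorts are small beside the distance from mouse 6 to the other mice. Steeper ones in mouse 5 include Nlrc5, B2m and H2-D1, with log2 differences (rhodamine-positive minus rhodamine-negative) of -1.42, 0.76 and 0.55.

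None of the 3 peptide transport and loading genes passed the test between the sorts. Tap1 and Tap2 encode the subunits of the TAP transporter, and Tapbp encodes tapasin. Tap1 (chromosome 17, 34187553 to 34197225) had 85.3, 139 and 406 CPM in rhodamine-positive libraries, against 115, 161 and 482 CPM in rhodamine-negative libraries. All 6 mice had less Tap1 in the rhodamine-positive sort, by amounts from 0.84 on the log2 scale in mouse 2 to almost none in mouse 4, and the groups overlapped. The log2 fold change was -0.27 ± 0.11 (SE; 95% interval -0.51 to -0.035) and did not pass (edgeR adjusted p = 0.0861). Tap2 (chromosome 17, 34203527 to 34216321) had 104, 121 and 248 CPM in rhodamine-positive libraries, against 109.5, 140.4 and 302 CPM in rhodamine-negative libraries. It was lower in 5 of 6 mice, with a log2 fold change of -0.20 ± 0.093 (SE; 95% interval -0.40 to 0.0053; edgeR adjusted p = 0.139). Tapbp (chromosome 17, 33915899 to 33929292) had 432, 512 and 744 CPM in rhodamine-positive libraries, against 399, 466 and 733 CPM in rhodamine-negative libraries. It showed no shared direction, with 4 mice higher and 2 lower and a log2 fold change of 0.088 ± 0.092 (SE; 95% interval -0.11 to 0.29; edgeR adjusted p = 0.512). Strand of counting is not given, and of the exonic length 24.9% of Tapbp and 14.1% of Tap2 overlap a noncoding gene on the other strand.

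Nlrc5, the transactivator gene, was the 1 member that passed the test, and it was lower in cells carrying nanoparticles. Nlrc5 (ENSMUSG00000074151, chromosome 8, 94434356 to 94527272) had 24.3, 29.3 and 79.5 CPM in rhodamine-positive libraries, against 26.5, 39.7 and 110.2 CPM in rhodamine-negative libraries. It was lower in 5 of 6 mice, with the largest drop in mouse 5 (30.0 CPM in the rhodamine-positive and 80.3 CPM in the rhodamine-negative sort), and slightly higher in mouse 4 (28.6 against 26.5 CPM). The log2 fold change was -0.48 ± 0.16 (SE; 95% interval -0.83 to -0.14) (a ratio of 0.715), with an edgeR adjusted p of 0.0397. The call rested on the pairing and on nearly every mouse: the edgeR adjusted p was 0.355 with the mouse left out of the model, and leaving out mouse 1, 2, 3, 5 or 6 gave 0.0701, 0.0642, 0.0770, 0.0721 and 0.0925. Without mouse 5 the log2 fold change was -0.29, and without mouse 4 it was -0.60 with an edgeR adjusted p of 0.0209. In the female mice the sort difference of Nlrc5 was 0.68 lower on the log2 scale than in the male mice (SE 0.27), which did not pass either (edgeR adjusted p = 0.608), and no member had a sort difference that differed between the sexes past the threshold, against 0% of all genes.

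Across the set, 1 of 10 members was lower and none higher in edgeR, while 13.2% of all 15014 genes tested were lower and 13.1% higher. Unadjusted p-values were under 0.05 for 4 members, H2-D1, H2-T23, Tap1 and Nlrc5. The median log2 fold change of the members was 0.071, beside -0.020 over all genes tested. The 2 sorts overlapped for every member, whereas they did not overlap for 8.81% of all genes, 4.67% being lower. Scaling to library size alone moved the median of all genes to -0.18, changed the split of all calls to 861 higher and 3137 lower, against 1973 higher and 1988 lower with the main scaling, and made H2-T23, Tap1 and Tap2 lower as well (edgeR adjusted p = 0.00542, 0.0157 and 0.0141).

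Mouse 4 stood apart in the direction of several members. It was the only mouse with less B2m, H2-Q7 and H2-K1 in the rhodamine-positive sort, by 0.41, 0.31 and 0.016 on the log2 scale, and the only mouse with more Tap2 and more Nlrc5, by 0.13 and 0.11. The deviations of its 2 libraries from their group means correlated across genes with r = 0.0775, below the 0.207 to 0.450 of the other mice and below the 0.187 that 1 of them reached with a library of another mouse. The pairing by animal is stated in the series description.

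Levels per length ranged from B2m, H2-D1 and H2-K1, among the most abundant transcripts of these cells, down to Nlrc5. On the scale of CPM per kilobase of exon, B2m averaged 3807 ± 534 in rhodamine-positive and 3293 ± 1003 in rhodamine-negative libraries (SD, n = 6 each) and ranked 15 of 15009 genes. H2-D1 followed with 2168 ± 508 and 1848 ± 592 in the same order of sorts (rank 26), and H2-K1 with 884 ± 314 and 771 ± 294 (rank 49). B2m exceeded H2-D1, and H2-D1 exceeded H2-K1, in all 12 libraries. H2-T23 and Tapbp came next with 156.5 and 148 in rhodamine-positive libraries, and their order differed between libraries. H2-M3, H2-Q7 and Tap2 followed with 80.0, 60.5 and 37.2, and each of these neighbours overlapped the next. Tap2 and Tap1 (32.4) also overlapped, and Nlrc5 was lowest at 4.39 ± 2.47 in rhodamine-positive and 6.44 ± 3.93 in rhodamine-negative libraries (rank 6332), below Tap1 in every library.

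For most members the larger differences lay between mice. In the model with sort and mouse, 6 of 10 members differed between mice (edgeR F test of the mouse terms, Benjamini-Hochberg), against 3.11% of all genes tested. These were H2-Q7 (adjusted p = 1.31e-05), Tap1 (0.000340), H2-T23 (0.00127), Tap2 (0.00366), H2-K1 (0.00583) and Nlrc5 (0.00940). H2-D1, H2-M3, Tapbp and B2m did not pass, with edgeR adjusted p of 0.0538, 0.0809, 0.0816 and 0.285. On log2 CPM over the 12 libraries, the mouse held 98.7% of the variance of H2-Q7, 93.3% of that of H2-T23 and 57.0% of that of B2m, beside a median of 45.5% over all genes. The H2 haplotypes of the mice are not given in the sources used here, and how reads of a haplotype other than that of mm10 would count at the H2 genes was not tested. The sort held 0.148% for H2-Q7 and at most 13.5% for any member, which was B2m, beside a median of 18.2% over all genes. The mouse has more terms than the sort and the shares are not adjusted for that, so each share compares with its own median over all genes, not with the other share.

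**Figure D2:**
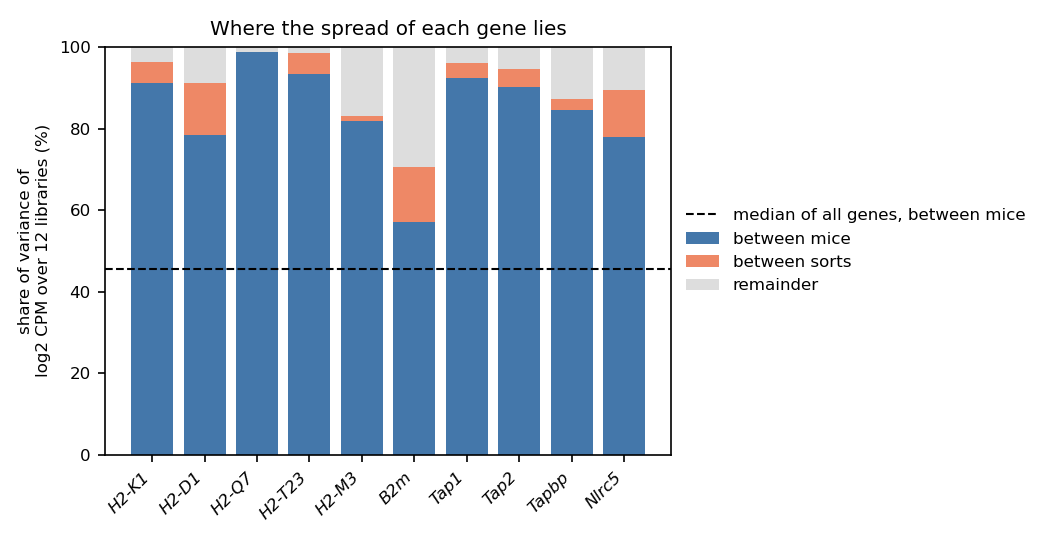
Share of the variance of log2 CPM over 12 libraries (%) that lay between mice, between sorts and in neither, as stacked bars per gene, with the median share between mice over all genes as a dashed line. The share between mice runs from 57.0% for B2m to 98.7% for H2-Q7, above the median of 45.5% for all 10 genes. Shares are not adjusted for the larger number of mouse terms.

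Mouse 6 was the highest for 9 of 10 members, all except B2m, whereas it was the highest mouse for 18.9% of all genes. Its mean of both sorts was 637 CPM for H2-Q7, against 109.7 to 254.9 CPM in the other 5 mice. Tap1 stood at 444 CPM in mouse 6, against 114 to 216 CPM in the others, and Nlrc5 at 94.8 CPM, against 27.6 to 55.1 CPM. These values are 4.70-fold, 3.74-fold and 3.15-fold the median of the other mice. The lead was present in each sort on its own: for H2-Q7 it was 5.11-fold in rhodamine-positive and 4.03-fold in rhodamine-negative libraries, and for H2-T23 it was 2.21-fold and 2.18-fold. Of the 10 members, 9 were at least 1.5-fold above the median of the other mice, against 6.51% of all genes, and B2m was 1.31-fold above it. Without mouse 6, 1 of 10 members still differed between mice, H2-Q7 (edgeR adjusted p = 0.0104), against 0.77% of all genes.

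Among the other 5 mice, H2-Q7 was higher in mice 1 and 5 than in mice 2, 3 and 4 in both sorts. In rhodamine-positive libraries it had 269 and 246 CPM in mice 1 and 5, against 113 to 131 CPM in mice 2, 3 and 4. In rhodamine-negative libraries the values were 240.4 and 242 CPM in mice 1 and 5, against 106 to 150.1 CPM in mice 2, 3 and 4. Mice 5 and 6, the female mice, were the 2 highest mice for Tap1, Tap2, Tapbp and Nlrc5, while for H2-Q7, H2-K1, H2-D1, H2-T23 and H2-M3 the second highest was mouse 1, a male. Levels were not tested between the sexes.

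Summed levels of other cell types in mouse 6 were within the range of the other mice for T cell markers (7.22 CPM in its rhodamine-positive and 6.44 CPM in its rhodamine-negative library), endothelial markers (29.7 and 38.1 CPM in the same order) and dendritic cell markers (416 and 1063 CPM). Natural killer cell markers were lowest in mouse 6 in the rhodamine-positive sort, at 2.30 CPM, and so were macrophage markers, at 10359 CPM, and glioma and oligodendrocyte lineage markers, at 42.9 CPM against 69.6 to 129.6 CPM. B cell markers were highest in mouse 6, at 40.7 CPM in the rhodamine-positive library, level with mouse 5, and 70.2 CPM in the rhodamine-negative library, against at most 54.7 CPM in the other mice. The part of these cells in the levels of class I genes was not tested.

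**Figure D3:**
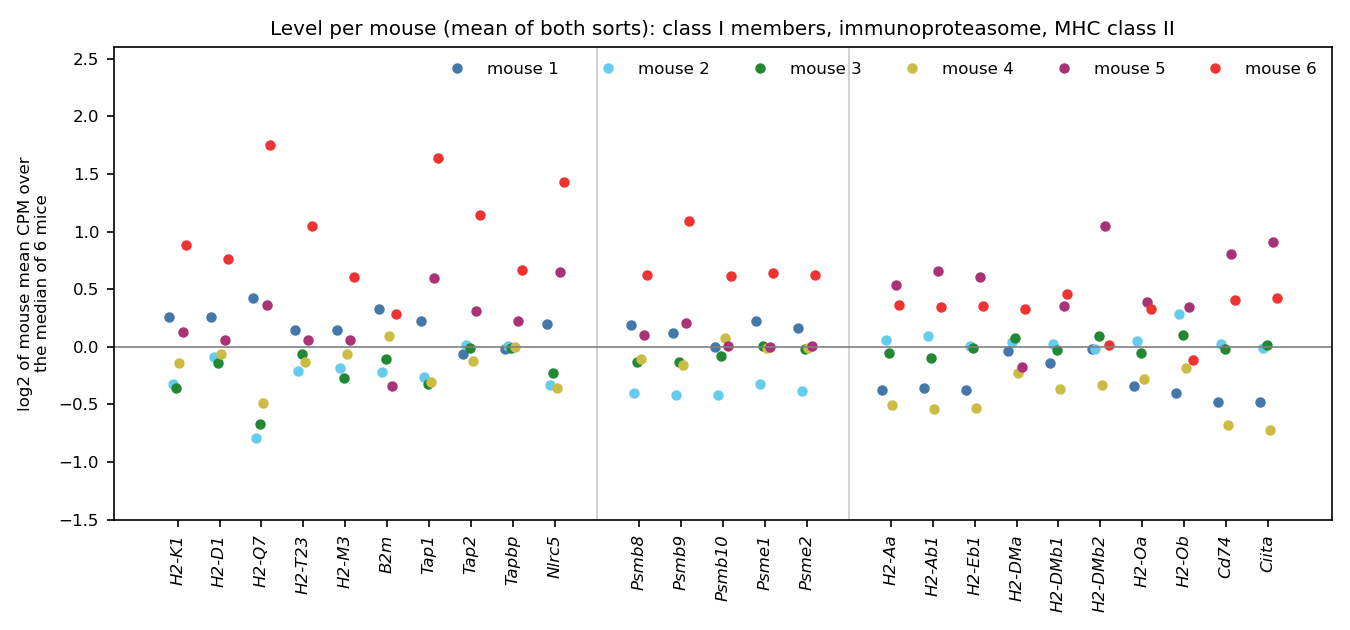
Log2 of each mouse's mean CPM of both sorts over the median of the 6 mice (1 point per mouse) for the class I genes, the immunoproteasome genes and the MHC class II genes. Mouse 6 is the top point for 9 of 10 class I genes and 5 of 5 immunoproteasome genes, beside 18.9% of all genes. It is the top point for 2 of 10 MHC class II genes, whose means are set mostly by the rhodamine-negative libraries.

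The 3 genes with the most similar pattern to each member were found by Pearson r of log2 CPM over the 12 libraries, with predicted and Rik genes left out. For H2-Q7 they were H2-T22 (0.97), the interferon-inducible GTPase genes Iigp1 (0.97) and Gbp2 (0.97). For H2-T23 they were Psmb9 (0.98), Gbp2 (0.97) and Mir6381 (0.96), a microRNA gene that lies within Gbp2. For Tap1 they were Mir6381 (0.98), H2-Q6 (0.98) and Gbp4 (0.97), and for Tap2 they were Trafd1, Parp10 and Tap1 (0.95, 0.94 and 0.94). H2-K1 was most like H2-D1, H2-Q7 and Iigp1 (0.96 each), H2-D1 most like H2-K1, Pdia5 and H2-M3 (0.96, 0.95 and 0.93), and H2-M3 most like H2-K1, H2-D1 and Ly6e (0.95, 0.93 and 0.91). Nlrc5 was most like Daxx, Fgl2 and Tgtp2 (0.97, 0.96 and 0.95), and Tapbp most like Prpf4, Znfx1 and Nod1 (0.95, 0.94 and 0.92). B2m was unlike the rest, its nearest genes being Vamp8, Washc3 and Dpm2 (0.93, 0.92 and 0.92), and its own r with Nlrc5 was -0.017. The libraries of mouse 6 weigh on these values: Gbp2 was 5.29-fold, Gbp4 7.73-fold and Tgtp2 4.75-fold the median of the other mice there.

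Among other heavy chain genes, 18 were listed, 15 were in the count table and 10 were tested. Of these, 5 fell in cells carrying nanoparticles and none rose, against 13.2% and 13.1% of all genes, with a median log2 fold change of -0.37. H2-K2 fell by 0.90 on the log2 scale (SE 0.13; edgeR adjusted p = 0.000422), to 19.8 ± 4.15 CPM in rhodamine-positive libraries against 36.9 ± 6.80 CPM in rhodamine-negative libraries (SD, n = 6 each). H2-Q5, H2-T24 and H2-Q6 fell by 0.38, 0.38 and 0.23, and H2-Q10, with at most 3.28 CPM in any library, changed by -1.69. The count of 5 was 1 with the mouse left out of the model and 1 to 3 when any 1 mouse was left out. Between mice, 6 of the 10 differed, against 3.11% of all genes, and 9 of the 10 were highest in mouse 6, against 18.9%.

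The immunoproteasome, the interferon-inducible form that cuts peptides suited to class I, had 1 of 5 genes lower and none higher, near the 13.2% of all genes that were lower, with a median log2 fold change of -0.077. Psmb9, which starts 211 bases from Tap1 on the other strand, was the 1 that fell, by 0.35 on the log2 scale (SE 0.081; edgeR adjusted p = 0.00882). It had 85.0, 109.9 and 257 CPM in rhodamine-positive libraries, against 104, 142 and 279 CPM in rhodamine-negative libraries, and was lower in 6 of 6 mice. Psmb9 did not pass with the mouse left out of the model, and scaling to library size alone made 3 of 5 lower. All 3 catalytic subunits of the standard proteasome rose, against 13.1% of all genes. Psmb6 rose by 0.52 ± 0.098, Psmb5 by 0.42 ± 0.093 and Psmb7 by 0.39 ± 0.091 on the log2 scale (SE; edgeR adjusted p = 0.00258, 0.00640 and 0.00848). With scaling to library size alone 2 of 3 rose, and in male mice alone 1 of 3 did. All 5 immunoproteasome genes differed between mice, against 3.11% of all genes, and all 5 were highest in mouse 6, against 18.9%. None of the 3 standard subunits differed between mice or was highest in mouse 6. The immunoproteasome and the standard subunits were not tested against each other.

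Of 12 genes of peptide loading and endoplasmic reticulum quality control, 6 rose in cells carrying nanoparticles and none fell, against 13.1% and 13.2% of all genes, with a median log2 fold change of 0.31, and 4 rose with scaling to library size alone. Calr, Canx and Pdia3 encode calreticulin, calnexin and ERp57, which fold heavy chains and join the peptide loading complex as well as serving other glycoproteins. Calr had 904, 977 and 1058 CPM in rhodamine-positive libraries, against 544, 609 and 697 CPM in rhodamine-negative libraries. The sorts did not overlap, and the rise was 0.67 ± 0.083 on the log2 scale (SE; edgeR adjusted p = 0.000209). Canx and Pdia3 rose by 0.52 each (SE 0.076 and 0.085) and the glucosidase gene Ganab by 0.46. Tapbpl, a relative of tapasin, was at -0.081 ± 0.14 and did not pass, and was 1.92-fold the median of the other mice in mouse 6. Of 7 peptide trimming enzymes, 4 rose and 1 fell, against 13.1% and 13.2% of all genes. Thop1, an oligopeptidase that destroys peptides in the cytosol, rose by 0.71, the aminopeptidase Lap3 by 0.69 and Erap1, which trims peptides in the endoplasmic reticulum, by 0.33, and Lnpep fell by 0.49. The count of risen trimming genes was 2 with library size alone and 2 without mouse 2 or mouse 4.

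Among 21 transcription factors and interferon signalling genes upstream of class I, 9 fell and none rose, against 13.2% and 13.1% of all genes. Their median log2 fold change was -0.28. Irf1, an interferon-induced activator of class I genes, fell by 0.90 on the log2 scale (SE 0.10; edgeR adjusted p = 0.000105). It had 75.7, 118 and 304 CPM in rhodamine-positive libraries, against 173, 200.4 and 527 CPM in rhodamine-negative libraries. The kinase gene Jak2 fell by 1.22, Nfkb1 by 0.67 and Ifngr1, a chain of the interferon gamma receptor, by 0.59. Rfx5, which binds class I and class II promoters, fell by 0.54. The count of 9 was 4 with the mouse left out of the model, 6 to 8 when any 1 mouse was left out and 13 with scaling to library size alone. Irf1 and Stat2 differed between mice (edgeR adjusted p = 0.000668 and 0.00684) and stood in mouse 6 at 2.82-fold and 2.69-fold the median of the other mice.

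**Figure D4:**
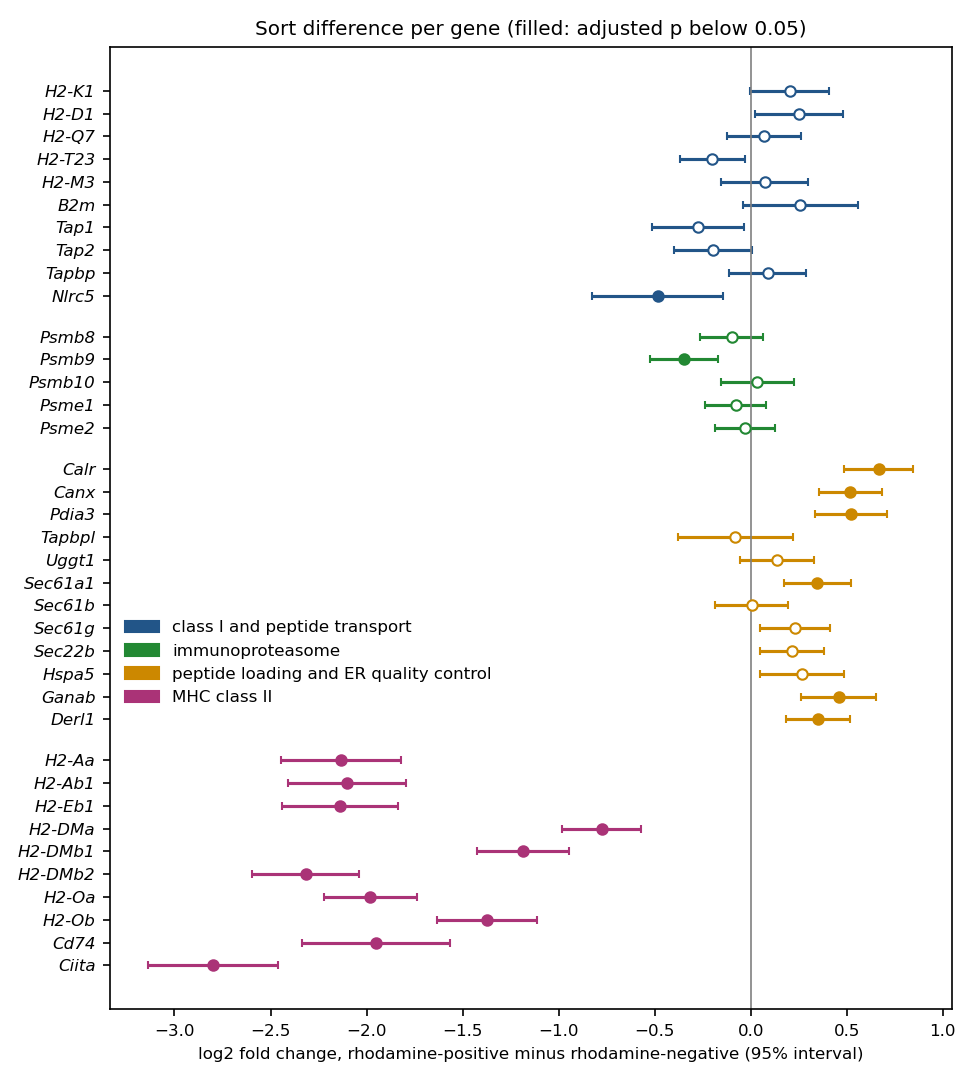
Log2 fold change, rhodamine-positive minus rhodamine-negative, with its 95% interval, for class I and peptide transport genes, immunoproteasome, peptide loading and MHC class II genes. Filled points passed edgeR at an adjusted p below 0.05; the class I genes lie between -0.48 and 0.26 and the MHC class II genes between -2.80 and -0.78.

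MHC class II genes, which present engulfed material to CD4 T cells, moved much further in the same libraries. All 10 fell, with a median of -2.04, against 13.2% of all genes. Of the class I genes 1 of 10 fell, which is near that share. Ratios of 2 genes within each library, which do not depend on scaling, were compared for 5 pairs. The pairs with a class II gene were chosen with the fall of class II known, so they give its size beside single class I genes and are no independent support. The log2 ratio of Nlrc5 to Ciita was 0.38 ± 0.53 in rhodamine-positive and -1.93 ± 0.54 in rhodamine-negative libraries (SD, n = 6 each). It was higher in the rhodamine-positive sort in 6 of 6 mice, by 2.31 ± 0.24 (SD), with an exact two-sided sign-flip p of 0.0312, the smallest that 6 mice allow. The ratio of B2m to H2-Ab1, a class II chain gene, was 0.77 ± 0.40 in rhodamine-positive and -1.59 ± 0.88 in rhodamine-negative libraries and higher by 2.36 ± 0.75 in 6 of 6 mice, with the same exact p. Adjusted over the 5 ratios both gave p = 0.0781 in the exact sign-flip test, which did not pass. The ratios of H2-K1 to H2-D1 (-0.050 ± 0.084), H2-Q7 to H2-K1 (-0.14 ± 0.19) and Tap1 to Tap2 (-0.078 ± 0.23) differed little between the sorts, with exact sign-flip p of 0.219, 0.156 and 0.375. The summed class II level was highest in mouse 6 in the rhodamine-positive sort, at 10788 CPM against 4850.3 to 7394 CPM in the other mice, and in mouse 5 in the rhodamine-negative sort, at 44646 CPM against 30901 CPM in mouse 6. Between mice, none of the 10 MHC class II genes passed, with edgeR adjusted p-values from 0.0777 up, against 3.11% of all genes. The difference from the class I genes in this was not tested.

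Some markers of other leukocytes moved with the sorts, beside 13.2% of all genes tested that were lower and 13.1% that were higher. Of 9 dendritic cell markers tested, 8 fell, and their summed level was 398 to 657 CPM in rhodamine-positive and 815 to 1619 CPM in rhodamine-negative libraries. Summed natural killer cell markers were at 2.30 to 10.9 CPM in rhodamine-positive and 40.6 to 89.4 CPM in rhodamine-negative libraries, with Ncr1 at 0 in all rhodamine-positive libraries. These sums are mostly Klrd1, with 508 counts in all rhodamine-positive and 4616 in all rhodamine-negative libraries. Klrd1 was the only 1 of the 6 tested and was lower (log2 fold change -3.09, edgeR adjusted p = 6.21e-06). The others, with at most 116 counts in all libraries of a sort, were too low to test. T cell markers summed to 6.79 to 19.3 CPM in rhodamine-positive and 5.75 to 9.39 CPM in rhodamine-negative libraries, and 1 of 3 tested was higher, Cd4 by 0.90 on the log2 scale. Cd5 and Lck did not pass, and Cd3d, Cd3e, Cd3g and Cd8a, with at most 8 counts in any library, were too low to test. The rise of Cd4 is thus not one of T cell markers as a set. B cell markers summed to 22.1 to 40.7 CPM in rhodamine-positive and 29.5 to 70.2 CPM in rhodamine-negative libraries, and 1 of 4 tested was lower, Jchain, at 0.0860 ± 0.175 CPM in rhodamine-positive and 18.6 ± 12.2 CPM in rhodamine-negative libraries (SD, n = 6 each). Of 6 glioma and oligodendrocyte lineage markers 4 fell, and their sums were 42.9 to 129.6 CPM in rhodamine-positive and 92.7 to 146 CPM in rhodamine-negative libraries. Basophil and mast cell markers reached 20.6 CPM in rhodamine-positive and 378 CPM in rhodamine-negative libraries. Mouse 5, in which Nlrc5 differed most between the sorts, held both of these highest values as well as the highest natural killer cell and dendritic cell sums of the rhodamine-negative sort. Macrophage markers such as Csf1r, Adgre1 and Cd68 were abundant in every library, with sums of 10359 to 12525 CPM in rhodamine-positive and 5029.5 to 9724 CPM in rhodamine-negative libraries, the lowest in mouse 5. Of 8 macrophage markers, 4 were higher and none lower, and 2 were higher with scaling to library size alone. The part of these cells in the class I values was not tested, and in bulk libraries fewer cells of a type and less RNA per cell cannot be told apart.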

How the data were processed

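The submitters' processing notes name HISAT2 2.1.0, featureCounts 1.4.4 and cutadapt beside bcl2fastq 2.17, as well as limma, edgeR and the build mm10. The roles of these tools and the strand setting are not given in the sources used here. The authors deposited raw read counts per gene for 12 libraries, which were equal in the series table and the 12 library files, and a table of 10605 genes in log2 normalized values, used as an alternative. The members and gene lists were chosen with earlier results of these data known.

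Counts were filtered with filterByExpr by sort (minimum count 10, minimum total 15), which left 15014 genes with 99.8% of counts, and scaled by TMM. Tests were quasi-likelihood F tests of edgeR 4.0.16 (robust) in R 4.3.3 on all 12 libraries with a term for each mouse, adjusted over all genes by Benjamini-Hochberg, at 0.05. SE is the absolute log2 fold change over the square root of F. Log2 CPM used a prior count of 2. P-values rest on 6 animals. Same-mouse libraries correlated in their deviations across genes (r = 0.0775 to 0.450, above the best r with another mouse for all but mouse 4), and the pairing comes from the series description. No library was a copy of another (lowest chi-square per degree of freedom 17.5). Exon lengths and coordinates are from GENCODE vM21, which is of the same build. Limma 3.58.1 and DESeq2 1.42.0 were alternatives. The sort test was checked on simulated counts, which does not show that differences as small as those of the members would be found. Named genes were all members, up to 4 genes per list by smallest p, the 3 genes most alike to each member (mean log2 CPM not under 3), without predicted and Rik genes, and the genes of the 5 ratios. Any further list gene was picked with its values known. The motif letters, both forms of the interferon factor element included, were chosen after matches of longer forms had been seen.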

Additional observations from a re-analysis of the deposited data

Results flagged for a closer look

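In a group of 6 values, the highest or lowest was singled out when its gap to the next, as a share of the whole range, exceeded Dixon's 95% limit for 6 values. For normally distributed values chance does this in about 1 of 20 groups. CPM entered without logs and is skewed to high values, so that rate does not hold for the CPM groups. The rule was not run on log2 CPM, where the gap above a highest value takes a smaller share of the range. Of 30 groups examined, which were the CPM of the 10 genes in each sort and their 10 sets of pair differences, 10 were singled out, and the extreme value was that of mouse 6 in each of them.

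In rhodamine-positive libraries, mouse 6 stood apart for H2-Q7 at 669 CPM (next highest 269), H2-T23 at 836 (424), Tap1 at 406 (183), Tap2 at 248 (145), Tapbp at 744 (534) and Nlrc5 at 79.5 (35.1). In rhodamine-negative libraries, mouse 6 stood apart for H2-Q7 at 604 CPM (next highest 242), H2-T23 at 889.5 (500.2), Tap1 at 482 (249) and Tap2 at 302 (163). No pair difference between the sorts was singled out, but these were on the log2 scale, so they do not compare with the CPM groups. The genes rise and fall together across libraries, so the 10 values are not independent.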

How the results depend on the processing

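The numbers of members higher and lower in rhodamine-positive sorts, 0 and 1 in the main test, depended on the settings. The number lower was 0 with no replicate block (without pairing by mouse), 0 in limma on the deposited log2 values, 0 in male mice alone, 2 in DESeq2 and 4 with library size alone. The number higher was 1 in DESeq2 (H2-D1) and 2 without a filter (H2-D1 and B2m). Leaving out 1 mouse gave 0 to 1 lower and 0 to 1 higher. Directions turned for H2-Q7 (-0.091), H2-M3 (-0.086) and Tapbp (-0.072) with library size alone, and for H2-M3 in male mice alone (-0.061) and with 1 mouse left out (-0.015 without mouse 5, otherwise up to 0.14), none of them past the threshold. The number of members that differed between mice was 6, and 1 to 9 with 1 mouse left out, the lowest without mouse 6. The sort difference of no member differed between the sexes past the threshold in any setting run. The ratios of Nlrc5 to Ciita (2.31) and of B2m to H2-Ab1 (2.36) passed with no replicate block (adjusted p = 0.00541 in the exact permutation test) and not with it. With 1 mouse left out they were 2.24 to 2.37 and 2.14 to 2.54, where 5 mice cannot reach 0.05. The ratios of H2-K1 to H2-D1, H2-Q7 to H2-K1 and Tap1 to Tap2 were -0.072 to -0.03, -0.17 to -0.078 and -0.15 to -0.028. All genes higher and lower numbered 1973 and 1988, against 1272 and 1390 with no replicate block, 861 and 3137 with library size alone, 1240 and 1456 on the deposited log2 values, 1034 and 1218 in male mice and 1279 and 1447 without mouse 3. Of 544 counts over the other gene lists, 48 moved by over 1.5 times. The cause was not tested. Genes with few counts, such as H2-Q10, limit what can be seen, and a member that did not pass is not shown to be equal in the sorts.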

Other observations

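Class I-like molecules, which bind lipids, metabolites or antibodies in place of peptides, went separate ways. Mr1, which presents vitamin B metabolites to mucosal-associated invariant T cells, rose by 0.96 on the log2 scale (SE 0.16; edgeR adjusted p = 0.00115), with 36.1, 42.8 and 60.6 CPM in rhodamine-positive libraries, against 11.9, 25.2 and 27.6 CPM in rhodamine-negative libraries. The sorts did not overlap for Mr1. Procr, which encodes the protein C receptor, fell by 0.85 (SE 0.23; edgeR adjusted p = 0.0194), with 2.86, 6.58 and 8.22 CPM in rhodamine-positive libraries, against 7.84, 10.3 and 16.5 CPM in rhodamine-negative libraries. It passed neither in male mice alone nor without mouse 5 or 6. Cd1d1, which presents lipids to natural killer T cells, was at -0.57 ± 0.22 and did not pass (edgeR adjusted p = 0.0739). Fcgrt, the heavy chain of the neonatal Fc receptor, and Hfe, a regulator of iron uptake, were at 0.18 ± 0.087 and -0.015 ± 0.074 (SE) and did not pass. None of these 5 differed between mice or was highest in mouse 6, against 3.11% and 18.9% of all genes.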
